A study of Mus musculus with 17 samples.

Results

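The genes described here encode cytokines that set the activity of natural killer (NK) cells, together with their partners and inhibitors. They are Il12a, Il12b, Il15, Il15ra, Il27, Ebi3, Il18bp, Il10 and Tnf, and they were chosen by gene symbol. All 9 are among the 25124 genes listed in each of 3 deposited tables of RNA-seq from sorted Kupffer cells (KCs) of mice, which are macrophages that live in the sinusoids of the liver.

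The study asked how KCs respond to a growing liver tumour and what they need the nuclear factor ID3 for, and it compared 17 samples. KCs were sorted as TIM4+CD206+ cells, the main subset, and as TIM4+CD206high cells, a minor subset, from untreated tumour-free livers (3 samples per subset) and from livers 2 weeks after tumour cells were injected into the portal vein (3 samples per subset). A further comparison used KCs of untreated mice without tumour, 3 samples labelled Id3f/f and 2 labelled Clec4fCreId3f/f. Both genotypes carry the floxed Id3 allele, and the Cre recombinase is driven from Clec4f, a gene that KCs switch on after birth. The tumour cells of this model are a line derived from mouse pancreatic tumours. Age, sex and the number of mice per sample are not stated in the labels. The methods give the genotype samples as biological replicates from littermates. For the tumour samples no label says that they came from separate mice, so that their p-values measure the spread between these samples, which may be in part technical. Nor does a label say whether both subsets were sorted from the same livers, so that the subsets may not be independent.

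IL-12 is a dimer of the p35 subunit (Il12a) and the p40 subunit (Il12b), is made by activated myeloid cells and drives interferon-γ production by NK and T cells. IL-15 keeps NK cells alive and is handed to them across the cell contact by the IL-15 receptor α chain (Il15ra) of the same myeloid cell. IL-27 joins the p28 subunit (Il27) to EBI3, IL-18-binding protein (Il18bp) neutralises secreted IL-18, IL-10 restrains macrophage cytokine output, and TNF is an inflammatory cytokine released by shedding from the cell surface. Several of these genes are known targets of interferon and NF-κB signalling.

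Values are on the log2 scale in which they were deposited, where 1 unit is a 2-fold difference. Each table was normalised on its own, so that groups were tested only within a table, and the subsets are set side by side. Genes were tested with limma when at least as many samples as the smaller group holds had a value of 3.32, the log2 of 10 counts. A gene was called when its Benjamini-Hochberg adjusted p, over all genes tested in the table, was under 0.05. In TIM4+CD206+ KCs, 469 of 13233 genes tested were called (3.54%), of which 337 were higher (2.55%) and 132 lower (0.998%) with tumour. No label pairs the replicate numbers, but in this subset the deviations of same-numbered samples from their group means correlated at 0.15 to 0.56. With replicate number as a block, 1026 genes were called, 617 of them higher. For TIM4+CD206high KCs, 1053 of 14561 were called (7.23%), 758 higher (5.21%) and 295 lower (2.03%). Between the genotypes 827 of 12833 were called (6.44%), 395 higher (3.08%) and 432 lower (3.37%) in Clec4fCreId3f/f KCs. The groups did not overlap, with the second group lower, for 10.5% of genes tested in TIM4+CD206+ KCs, 15.2% in TIM4+CD206high KCs and 21.7% between the genotypes. The median difference over all genes was 0.02, 0.03 and 0.00.

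Some facts of the libraries bear on every result. The 8 Kupffer cell markers were all expressed, with a mean value of 15.6 to 16.5 in every sample. With tumour their median difference was -0.38 in TIM4+CD206+ and -0.46 in TIM4+CD206high KCs, 7 of 8 were negative in each, and Adgre1 (-0.93 ± 0.18) and Timd4 (-0.75 ± 0.16) were called lower in TIM4+CD206+ KCs. These medians are close to those of the cytokine genes given below, and the part of such a shift in them was not tested. Of 9 epithelial tumour cell markers, 8 were tested with tumour and all 8 were higher in both subsets, among them Krt19, which rose by 5.25 ± 0.29 (SE) in TIM4+CD206+ and 5.36 ± 0.37 in TIM4+CD206high KCs. Monocyte markers (4 and 3 of 8 called) and neutrophil markers (4 of 9 and 3 of 8) were higher with tumour, and hepatocyte markers (7 and 6 of 8) and B cell markers (3 of 4 and 2 of 5) were lower. The mean of 8 endothelial markers was 9.1 to 10.4 in TIM4+CD206+ and 13.2 to 14.3 in TIM4+CD206high samples. With tumour their median difference was -0.62 and -0.72, with 6 and 7 of 8 negative. Over 17 samples their mean correlated with Il15ra at 0.79 (0.72 centred on group means), and the part of endothelial RNA was not tested. In these bulk samples, fewer cells of a type and less RNA per cell cannot be told apart. Tumour-free replicate 2 was the lowest tumour-free sample for 6 of the 9 genes described here in TIM4+CD206+ KCs and for 5 in TIM4+CD206high KCs. Counts of calls with tumour are therefore given with and without it, a choice made after the values were seen. Between the genotypes Xist lay at 6.33 to 6.38 in Id3f/f and 9.76 to 9.84 in Clec4fCreId3f/f KCs and Ddx3y at 9.43 to 9.46 and at most 7.01, so that sex-linked genes differ with genotype and sex and Id3 deletion cannot be told apart. In the tumour comparisons Xist was at or below 0 in every sample. Ddx3y in TIM4+CD206+ KCs lay at 7.19 to 8.76 without and 8.99 to 9.28 with tumour (limma, adjusted p = 0.191). Its groups overlapped in TIM4+CD206high KCs (difference -0.32, adjusted p = 0.426).

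Across the family, transcript levels spanned the range from the most abundant mRNAs of KCs to the edge of detection. To compare genes, the value was taken per kilobase of the longest annotated transcript and set in order of all genes tested. On this per-length log2 scale, Il18bp was the highest in every group, from 13.21 in tumour-bearing TIM4+CD206high KCs to 14.55 in tumour-free TIM4+CD206+ KCs, above 98.6% to 99.3% of genes. Ebi3 came next (9.88 to 11.54, above 81.3% to 95.5% of genes), and Il15 was the third (8.80 to 9.59, above 68.9% to 80.2%). Il12b, at 3.37 to 6.05, was above only 11.2% to 30.4% of genes, and Il12a, where it was tested, at 2.98 to 3.31, was above 5.8% to 10.0%. In these bulk samples RNA for the IL-18 inhibitor was thus among the most abundant, RNA for EBI3 was above that of most genes, and RNA for the subunits of IL-12 was scarce.

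The order in the middle was less fixed. In tumour-free TIM4+CD206+ KCs, Tnf (8.37 ± 0.47, SD, n = 3), Il27 (8.31 ± 0.53), Il10 (7.95 ± 1.07) and Il15ra (7.53 ± 0.39) followed each other on the per-length scale, and each overlapped its neighbour across samples. In Id3f/f KCs the order was Il15ra (8.71 ± 0.17), Il27 (7.63 ± 0.11), Il10 (7.47 ± 0.06) and Tnf (7.25 ± 0.10), where only Il27 and Il10 overlapped. Il18bp and Ebi3 did not overlap in any of the 6 groups. Ebi3 and Il15 overlapped only in tumour-free TIM4+CD206high KCs, and Il12b overlapped Il10 in that group alone.

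**Figure D1:**
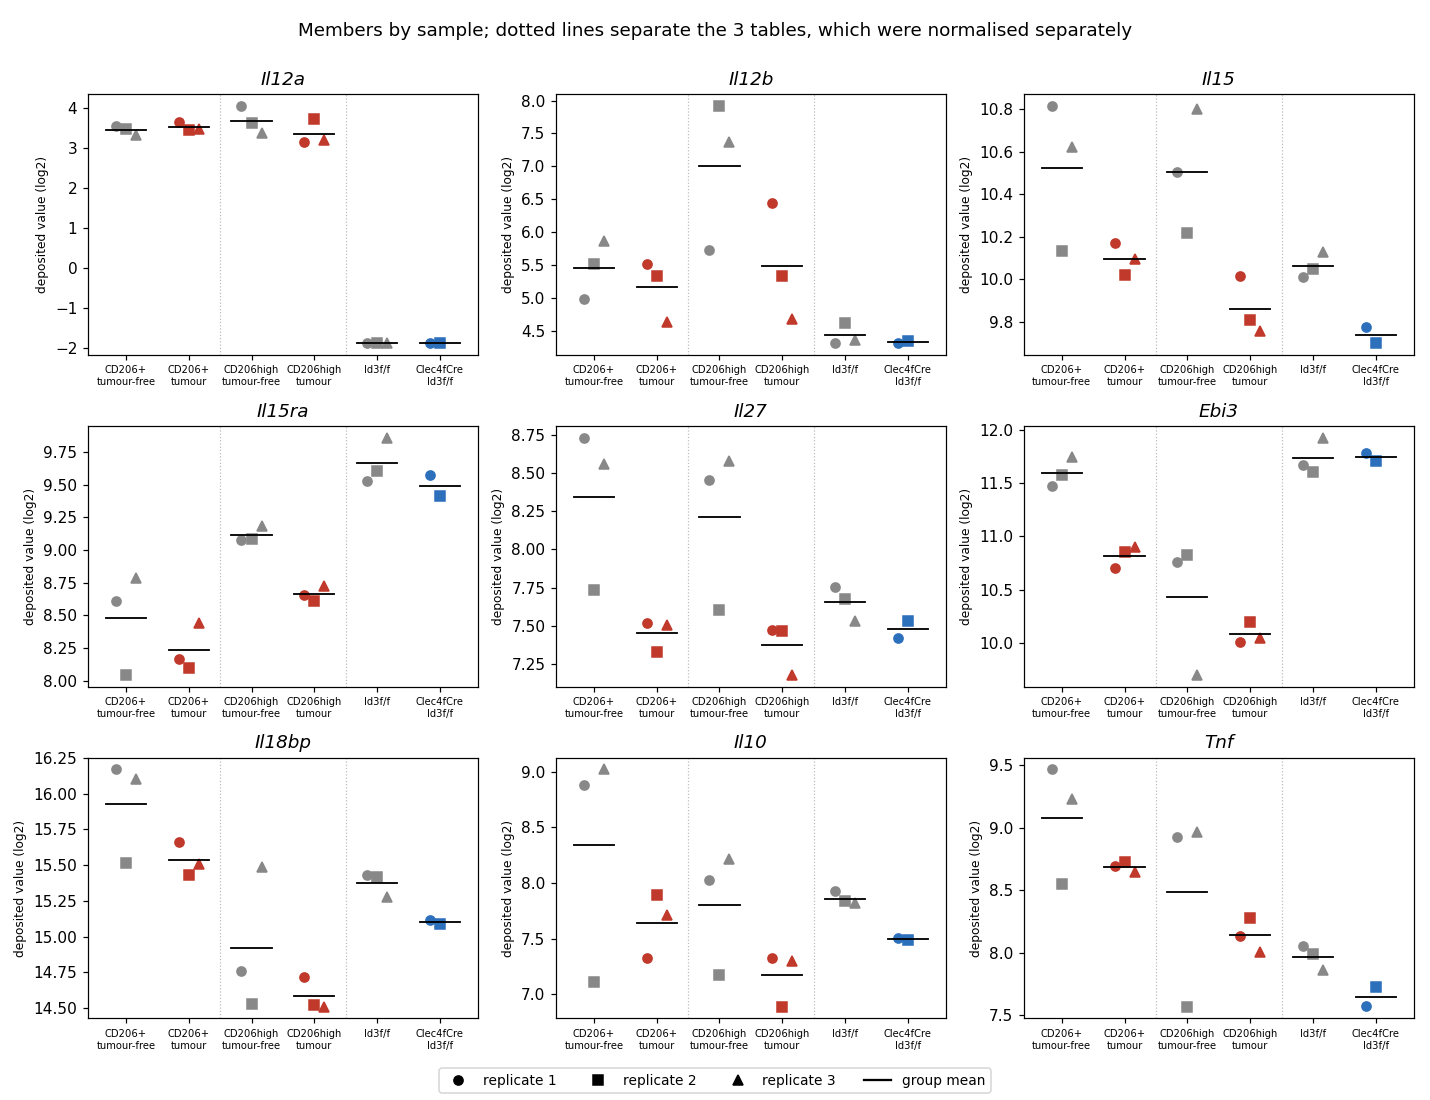
Deposited value (log2, y axis, with its own range in each panel) of each gene in the 6 groups, with 1 point per sample, its shape giving the replicate number, and the group mean as a line. Tumour-free replicate 2 (grey square) lies below both other tumour-free samples of its subset for Il27, Il10, Tnf, Il15 and Il18bp, and Il12a lies at -1.88 in the 5 samples of the Id3 table.

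By the GENCODE M21 annotation of GRCm38, the genes lie at chr3:68690644-68698547 (Il12a), chr11:44400063-44414033 (Il12b), chr8:82331632-82403222 (Il15), chr2:11705290-11734317 (Il15ra), chr7:126589010-126594941 (Il27), chr17:55952640-55957022 (Ebi3), chr7:102014885-102018690 (Il18bp), chr1:131019845-131024974 (Il10) and chr17:35199381-35202007 (Tnf). Il27, Il18bp and Ebi3 share ground with a gene on the other strand, respectively Apobr, Numa1 and Gm16712. The amplification used does not mark the strand, so that reads in the shared bases cannot be assigned to one of the pair. Gm16712 followed Ebi3 almost exactly over the 17 samples (r = 1.00 with values centred on the table mean), whereas Apobr with tumour was at 0.15 and 0.26 where Il27 was at -0.89 and -0.84 (differences, log2). Numa1 lay at -0.61 ± 0.18 in TIM4+CD206+ KCs with the groups apart (adjusted p = 0.125), beside Il18bp at -0.40, and at 0.16 in TIM4+CD206high KCs, beside -0.34. The part of shared reads in these values was not tested.

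RefSeq promoter windows of GRCm38.p6, from 250 bases before to 50 bases after the start site, were held for 6 of the 9 genes, in 8 windows. They were searched on both strands for an interferon response element (GAAANNGAA), an NF-κB element (GGGANNTTC), an E-box (CANNTG), its form bound by E2A, the partner that ID3 sequesters (CAGCTG or CACCTG, a subset of the E-boxes), and an ETS core (CCGGAA). Of 32851 promoters, 8.56% hold the interferon element, 3.94% the NF-κB element, 72.3% an E-box, 32.9% the E2A form and 14.9% the ETS core. Shown are the windows of Ebi3, the gene called with tumour, of Il15ra, the only one of these genes whose windows hold the interferon element, and of Tnf and Il18bp, which moved together across samples, with capitals marking every element other than a plain E-box.
Ebi3, chr17:55952373-55952672, plus strand: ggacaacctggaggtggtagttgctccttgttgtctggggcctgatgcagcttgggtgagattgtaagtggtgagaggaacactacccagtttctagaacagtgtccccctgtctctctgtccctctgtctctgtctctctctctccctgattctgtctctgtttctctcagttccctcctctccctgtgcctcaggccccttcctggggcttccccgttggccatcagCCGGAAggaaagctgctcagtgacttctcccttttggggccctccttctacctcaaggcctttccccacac
Il15ra, chr2:11705043-11705342, plus strand: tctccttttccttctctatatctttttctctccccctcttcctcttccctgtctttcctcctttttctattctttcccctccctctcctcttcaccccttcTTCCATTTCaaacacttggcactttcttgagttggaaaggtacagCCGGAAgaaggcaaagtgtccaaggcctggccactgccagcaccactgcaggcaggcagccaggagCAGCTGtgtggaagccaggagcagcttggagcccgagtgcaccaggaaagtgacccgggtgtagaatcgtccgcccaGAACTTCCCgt
Il15ra, chr2:11705462-11705761, plus strand: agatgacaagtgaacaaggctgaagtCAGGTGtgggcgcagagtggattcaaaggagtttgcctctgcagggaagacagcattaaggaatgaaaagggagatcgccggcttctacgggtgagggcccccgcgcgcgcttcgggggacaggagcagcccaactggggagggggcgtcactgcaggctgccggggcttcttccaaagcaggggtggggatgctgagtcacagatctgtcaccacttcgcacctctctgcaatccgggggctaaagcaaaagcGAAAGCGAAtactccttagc
Tnf, chr17:35201958-35202257, minus strand: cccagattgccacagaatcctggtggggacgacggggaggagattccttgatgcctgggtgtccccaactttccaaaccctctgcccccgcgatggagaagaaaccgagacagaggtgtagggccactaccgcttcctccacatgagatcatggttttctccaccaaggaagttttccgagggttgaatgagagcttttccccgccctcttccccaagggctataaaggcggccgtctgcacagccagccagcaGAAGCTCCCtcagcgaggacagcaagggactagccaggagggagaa
Il18bp, chr7:102018183-102018482, minus strand: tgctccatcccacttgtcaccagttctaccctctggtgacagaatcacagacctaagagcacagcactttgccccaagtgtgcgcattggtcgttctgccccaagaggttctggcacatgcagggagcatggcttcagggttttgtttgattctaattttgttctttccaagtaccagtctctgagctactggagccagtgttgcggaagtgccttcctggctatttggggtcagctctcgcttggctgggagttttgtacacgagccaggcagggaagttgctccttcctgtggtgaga
With the first transcribed base as 1, the Ebi3 window holds an ETS core at -21 and none of the other elements, E-boxes included. The first Il15ra window holds the interferon element at -149, an ETS core at -104, the E2A form at -38 and the NF-κB element at 40, and the second holds the E2A form at -224 and the interferon element at 31. The Tnf window holds an NF-κB element at 5 and a plain E-box at -111, and the Il18bp window holds 3 plain E-boxes. One of the 2 windows of Il12a holds the E2A form, at -85, and that of Il12b holds only a plain E-box at -90. A match is a run of letters, and no binding was measured here.

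The first comparison asked whether KCs sorted from tumour-bearing livers carry more or less RNA for these cytokines. No label gives the distance of the sorted cells from the tumour. In TIM4+CD206+ KCs, Ebi3 fell, and it was the only one of the 9 genes called (1 of 9, beside 0.998% of all genes called lower). No gene was called higher, and 8 of 9 differences were negative, with a median of -0.40 (all genes, 0.02). Groups did not overlap for Ebi3 and Il27, with tumour lower (2 of 9, beside 10.5% of all genes).

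Ebi3, the shared subunit of IL-27 and IL-35, was at 11.47, 11.57 and 11.74 in the 3 tumour-free and 10.70, 10.85 and 10.90 in the 3 tumour-bearing samples. Every tumour-bearing sample lay below every tumour-free one, and the difference was -0.78 ± 0.16 (SE, n = 3 and 3; limma, adjusted p = 0.0381). Its call was lost in the fit without any single sample other than tumour-free replicate 2, with differences from -0.70 to -0.84 and adjusted p of 0.0774 to 0.170. Gm16712, from the other strand, was at -0.71 ± 0.19 (adjusted p = 0.0863). Hepatocyte genes were lower with tumour as well, as the mean value of their list was 10.44 to 10.89 without and 8.91 to 9.07 with it. Over 17 samples, the correlation of Ebi3 with that mean was 0.68 with values centred on the table mean and 0.11 centred on the group mean. The part of hepatocyte RNA in this difference was not tested.

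Il27, the p28 subunit that pairs with EBI3, was at 8.73, 7.73 and 8.55 without tumour and 7.52, 7.33 and 7.51 with it. All tumour-bearing samples were below all tumour-free ones, but tumour-free replicate 2 was close to them, and the difference of -0.89 ± 0.30 was not called (adjusted p = 0.177). Il10, which restrains macrophage cytokines, was at 8.89, 7.11 and 9.02 without and 7.33, 7.90 and 7.71 with tumour. Tumour-free replicate 2 was here the lowest of the 6 samples, and the difference of -0.70 had a 95% interval from -1.82 to 0.42 (adjusted p = 0.540). Il18bp, the IL-18 inhibitor, was at 16.17, 15.51 and 16.10 without and 15.66, 15.43 and 15.51 with tumour, again with replicate 2 among the tumour-bearing values (-0.40 ± 0.21, adjusted p = 0.387).

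Il15, the NK cell survival factor, was at 10.82, 10.13 and 10.62 without and 10.17, 10.02 and 10.10 with tumour, a difference of -0.43 ± 0.21 (adjusted p = 0.358). Il15ra, which presents it, was at 8.61, 8.05 and 8.79 and at 8.16, 8.09 and 8.44, and Tnf was at 9.46, 8.55 and 9.23 and at 8.69, 8.72 and 8.65. In all of these, the groups overlapped through tumour-free replicate 2. The differences were -0.25 ± 0.26 for Il15ra (adjusted p = 0.717) and -0.39 ± 0.27 for Tnf (adjusted p = 0.529).

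Tumour-free replicate 2 was the lowest tumour-free sample for 6 of the 9 genes (Il15, Il15ra, Il27, Il18bp, Il10 and Tnf), and for 41.4% of all genes tested. Replicates 1 and 3 were both above all 3 tumour-bearing samples for 7 of 9 genes, beside 21.2% of all genes. Since the sample was singled out for its low values of these genes, counts without it describe how far it sets the result and are no further support. Without replicate 2, 4 of 9 genes were called, all lower with tumour, beside 4.50% of all genes called lower and 3.23% called higher in that fit. These were Il10 (-1.31 ± 0.26, adjusted p = 0.0251), Il27 (-1.19 ± 0.24, adjusted p = 0.0251), Ebi3 (-0.79 ± 0.15, adjusted p = 0.0229) and Il18bp (-0.60 ± 0.11, adjusted p = 0.0156). Il15 was then at -0.62 (adjusted p = 0.0544) and Tnf at -0.66 (adjusted p = 0.0905).

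All 9 differences were negative in TIM4+CD206high KCs, with a median of -0.45 (all genes, 0.03). That of Il12a (-0.32) was inside its counting error of 0.35. None of the 9 genes was called in limma, though 4 had an unadjusted p under 0.05 (3069 of 14561 genes did). The smallest adjusted p was 0.122, for Il15. The groups did not overlap for Il15, Il15ra and Il27, all lower with tumour (3 of 9, beside 15.2% of all genes).

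Il15 was at 10.50, 10.22 and 10.80 without and 10.01, 9.81 and 9.76 with tumour (-0.65 ± 0.20). Il15ra was at 9.07, 9.08 and 9.18 without and 8.65, 8.61 and 8.73 with tumour (-0.45 ± 0.17, adjusted p = 0.193). The chain that presents IL-15 and the cytokine itself were thus both lower in each tumour-bearing sample than in any tumour-free one. Il27 was at 8.45, 7.60 and 8.57 and at 7.47, 7.47 and 7.18 (-0.84 ± 0.30, adjusted p = 0.169), close to the difference of -0.89 in TIM4+CD206+ KCs.

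Il12b, the p40 subunit, had the largest difference of the 9 genes and the largest error. It was at 5.73, 7.92 and 7.37 without and 6.44, 5.34 and 4.68 with tumour, and 1 sample of each group lay inside the range of the other. The difference was -1.52 ± 0.65, with a 95% interval from -3.05 to -0.0007 (adjusted p = 0.237). Dendritic cells are a known source of p40, and the summed level of the 11 dendritic cell markers, each of them above 0 in the table, was 12.0 to 12.9 (log2) without and 12.3 to 12.4 with tumour. The tumour-free sample with the highest sum was replicate 2, which also had the highest Il12b, but replicate 3 had the lowest sum and the second highest Il12b. Over 17 samples, the correlation of Il12b with the dendritic cell mean was 0.23 with values centred on the table mean and 0.56 centred on the group mean. The part of these cells in Il12b was not tested.

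Il10 was at 8.03, 7.17 and 8.22 without and 7.33, 6.89 and 7.29 with tumour, and Tnf at 8.93, 7.57 and 8.96 and at 8.13, 8.28 and 8.00. In both genes tumour-free replicates 1 and 3 were above and replicate 2 among or below the tumour-bearing samples. Differences were -0.63 ± 0.32 (adjusted p = 0.304) and -0.35 ± 0.39 (adjusted p = 0.621). For Ebi3 a different sample stood apart, as it was at 10.77, 10.83 and 9.71 without and 10.01, 10.20 and 10.05 with tumour (-0.34 ± 0.31, adjusted p = 0.541). Without tumour-free replicate 3, Ebi3 was called lower (-0.71 ± 0.11, limma, adjusted p = 0.0204). That sample was singled out for its low Ebi3, so that this call is no further support. It was the lowest tumour-free sample for 38.9% of all genes, Id3 among them (13.43, beside 14.49 and 14.62). Il18bp was at 14.76, 14.53 and 15.49 without and 14.72, 14.52 and 14.51 with tumour (-0.34 ± 0.26, adjusted p = 0.474), and its difference was -0.06 without tumour-free replicate 3.

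Replicate 2 was the lowest tumour-free sample for 5 of the 9 genes in this subset too (Il15, Il27, Il18bp, Il10 and Tnf), beside 35.1% of all genes. Replicate 3 was the lowest for a larger share of all genes (38.9%), and for Il12a and Ebi3. For Il18bp, replicate 2 was close to replicate 1 (14.53 and 14.76). Without replicate 2, 4 of 9 genes were called, all lower, beside 7.38% of all genes called lower and 17.6% called higher. They were Il27 (-1.14 ± 0.20, adjusted p = 0.00893), Il15 (-0.79 ± 0.18, adjusted p = 0.0211), Tnf (-0.81 ± 0.19, adjusted p = 0.0229) and Il10 (-0.95 ± 0.23, adjusted p = 0.0256). The calls of Il27 and Il10 in both subsets thus rest on leaving out a sample that was lowest for these genes, and neither was called with all samples. As the subsets may share mice, a pattern seen in both may not be independent. Whether the change with tumour differs between the subsets was not tested, because their tables were normalised separately.

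**Figure D2:**
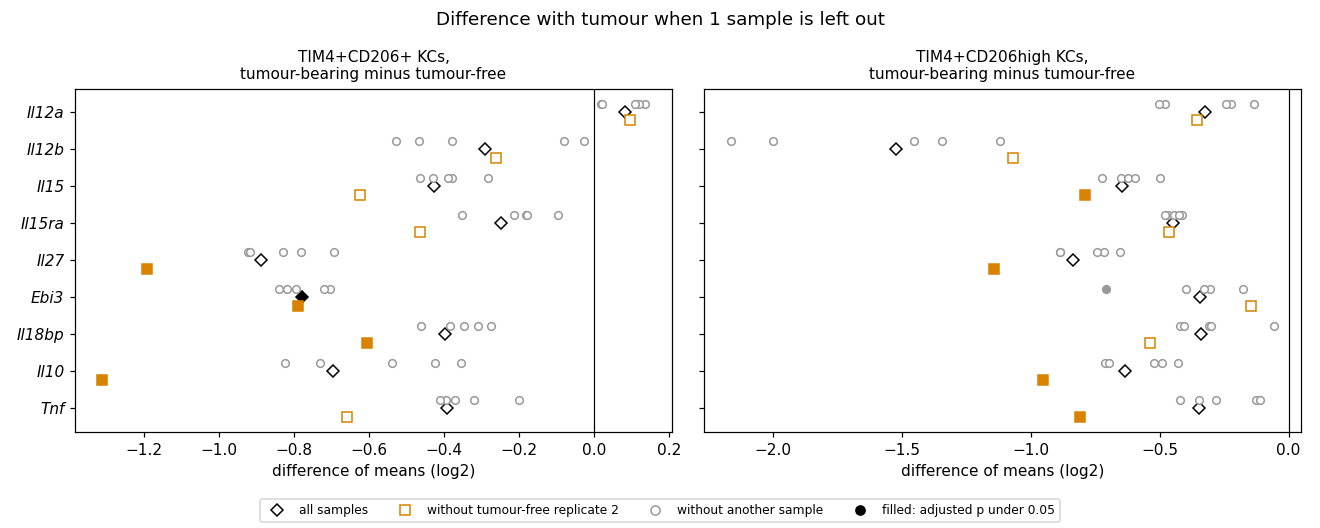
Difference with tumour (log2, x axis) for each gene with all samples (diamond), without tumour-free replicate 2 (orange square) and without each other sample (circle), filled where the adjusted p was under 0.05. Leaving out replicate 2 moves Il10 from -0.70 to -1.31 in TIM4+CD206+ KCs and Tnf from -0.35 to -0.81 in TIM4+CD206high KCs.

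The second comparison asked what KCs lose of this programme with Id3. Id3 itself was at 12.58, 12.46 and 12.82 in Id3f/f and 9.83 and 9.82 in Clec4fCreId3f/f KCs, so that it fell by 2.80 ± 0.11 (n = 3 and 2; limma, adjusted p = 1.4e-06) and remained detected. Il10 was the only one of the 8 genes tested that was called, and it fell (1 of 8, beside 3.37% of all genes called lower). Of the 8 differences, 7 were negative, with a median of -0.23 (all genes, 0.00). That of Il12b (-0.10) was inside its counting error of 0.29. The groups did not overlap for Il15, Il27, Il18bp, Il10 and Tnf, all lower in Clec4fCreId3f/f KCs (5 of 8, beside 21.7% of all genes). For Il27 they all but met, at 7.5344 in Id3f/f and 7.5329 in Clec4fCreId3f/f KCs, a gap below the counting error of 0.10.

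Il10 was at 7.93, 7.84 and 7.82 in Id3f/f and 7.51 and 7.48 in Clec4fCreId3f/f KCs (-0.36 ± 0.09, adjusted p = 0.0388). As a count of that size carries a counting error of 0.09 to 0.11, above the SD of 0.06 and 0.02 of the deposited values, the error of the difference is about that of counting alone (0.09). The call was lost without any single sample other than Id3f/f replicate 3, with adjusted p of 0.0733 to 0.327 and differences of -0.33 to -0.38. In the fits without one Clec4fCreId3f/f sample, the lone sample left was assumed to vary like the other group. Il18bp was at 15.43, 15.42 and 15.27 and at 15.11 and 15.09 (-0.27 ± 0.08, adjusted p = 0.0603). The IL-18 inhibitor thus missed the threshold, although no sample of either genotype lay within the range of the other.

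Il15 was at 10.01, 10.05 and 10.13 in Id3f/f and 9.77 and 9.70 in Clec4fCreId3f/f KCs (-0.33 ± 0.09, adjusted p = 0.0636). Tnf was at 8.05, 7.99 and 7.86 and at 7.57 and 7.72 (-0.32 ± 0.10, adjusted p = 0.0837). Both were lower in each Clec4fCreId3f/f sample, and neither was called. Without Id3f/f replicate 3, Il18bp (-0.33 ± 0.05, limma, adjusted p = 0.00108) and Tnf (-0.37 ± 0.10, adjusted p = 0.0232) were called lower as well. That sample was the lowest of its group for both genes (15.27 and 7.86), so that these calls depend on its removal and are no further support.

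Ebi3, which fell with tumour in TIM4+CD206+ KCs, was at 11.67, 11.61 and 11.93 in Id3f/f and 11.79 and 11.71 in Clec4fCreId3f/f KCs. The groups overlapped, and the 95% interval of the difference ran from -0.23 to 0.26 (adjusted p = 0.955). For Il15ra, at 9.53, 9.60 and 9.86 and at 9.57 and 9.41, the interval ran from -0.43 to 0.09. Il27 was at 7.75, 7.68 and 7.53 and at 7.42 and 7.53, and its interval ran from -0.39 to 0.04.

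**Figure D3:**
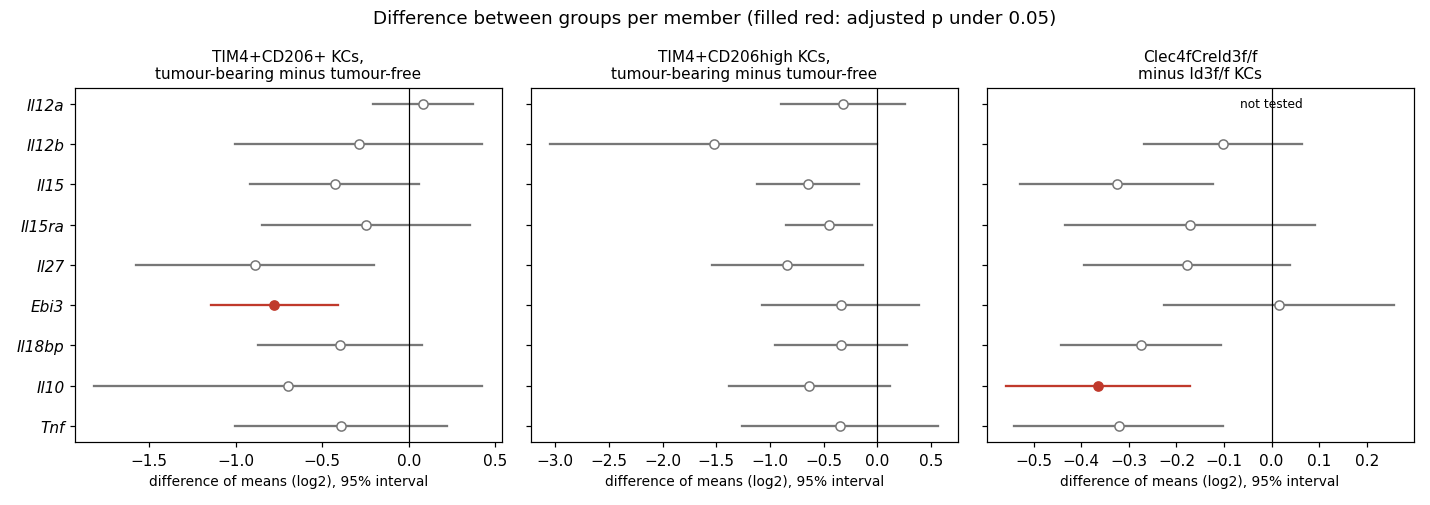
Difference of group means (log2, x axis, with its own range in each panel) with its 95% interval for each gene in the 3 comparisons, filled red where the adjusted p was under 0.05. Only Ebi3 with tumour in TIM4+CD206+ KCs (-0.78) and Il10 with Id3 deletion (-0.36) are filled, and Il12a was not tested between the genotypes.

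Of the genes of IL-12, neither could be judged between the genotypes. Il12a was at -1.88 in all 5 samples, the lowest value of that table, and was not tested. Il12b was at 4.32, 4.62 and 4.36 in Id3f/f and 4.32 and 4.34 in Clec4fCreId3f/f KCs, values equal to about 21.6 and 20.1 counts. Counts of that size carry a counting error of 0.31 to 0.32 in log2, whereas the deposited values differed by an SD of 0.16 and 0.02. The deposited difference of -0.10 ± 0.07 was thus given with a smaller error than counting alone would leave (0.29).

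With tumour, Il12a was near the limit of detection as well. In TIM4+CD206+ KCs it was at 3.55, 3.48 and 3.32 without and 3.66, 3.46 and 3.48 with tumour, or 10.9 and 11.6 counts, and the difference of 0.08 ± 0.13 is inside the counting error of 0.35. In TIM4+CD206high KCs it was at 4.06, 3.62 and 3.38 and at 3.16, 3.72 and 3.21, with a difference of -0.32 ± 0.25 beside a counting error of 0.35. Il12b in TIM4+CD206+ KCs was at 4.98, 5.51 and 5.87 and at 5.52, 5.34 and 4.64, or 43.9 and 35.9 counts, and its 95% interval ran from -1.01 to 0.43. Il12a is therefore too low to judge in all 3 tables and Il12b in the Id3 table, while the other 7 genes were at 144 counts or more on average in every group.

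**Figure D4:**
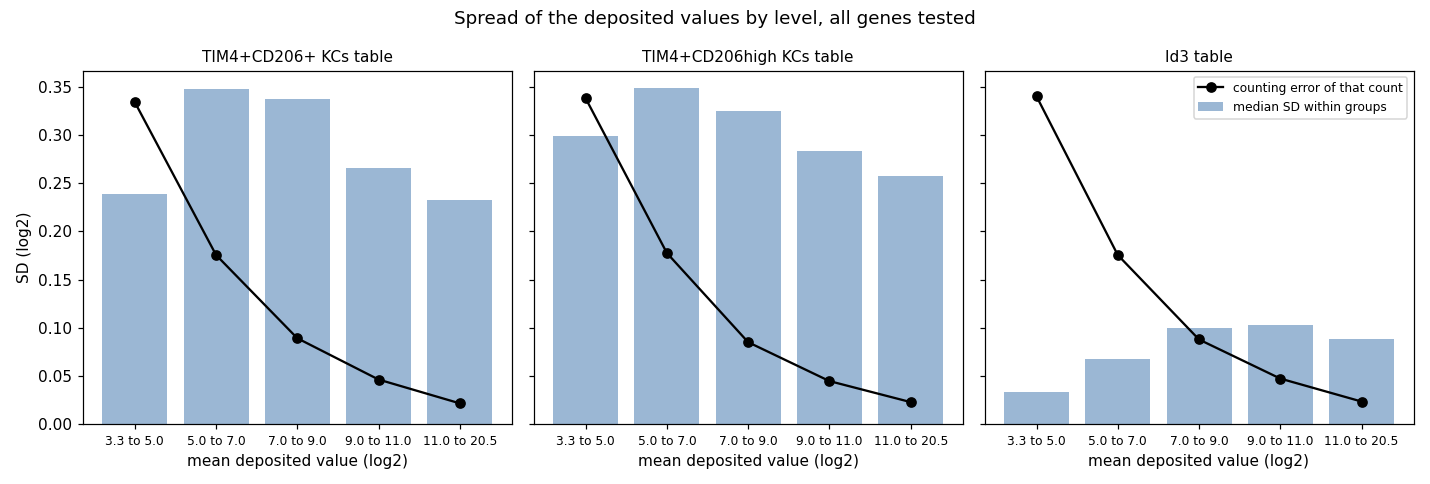
Median SD within groups (bars, log2) of all genes tested, by mean deposited value (x axis, log2), beside the counting error that a count of that size has (black line), in the 3 tables. Between 3.32 and 5, the values of the Id3 table spread by 0.03 where counting alone gives 0.34, and the TIM4+CD206+ table by 0.24 where it gives 0.33.

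The members fell into a group that moved together across samples and some that did not. With values centred on the table mean, Il15 and Il27 (r = 0.93), Il15 and Il18bp (r = 0.89), Il27 and Tnf (r = 0.85) and Il10 and Il27 (r = 0.84) were among the most alike pairs, over 17 samples that share 3 tables and their libraries. Centred on group means, which removes the change with tumour or genotype, these pairs stayed at 0.82 to 0.95. Ebi3 did not follow its partner Il27 (0.38 and, centred on group means, -0.43) and ran against Il18bp within groups (-0.77). Il12b was at 0.46 or less with every other gene.

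Interferon-stimulated genes followed the same samples. Over the 15 genes of that list, the mean value was 11.45, 10.58 and 11.21 in tumour-free and 10.37, 10.27 and 10.53 in tumour-bearing TIM4+CD206+ KCs. In TIM4+CD206high KCs it was 12.22, 11.55 and 12.52 and then 10.99, 11.04 and 11.32, with tumour-free replicate 2 again the lowest of its group. Its correlation with the members was 0.95 for Il15, 0.92 for Il27, 0.84 for Il18bp, 0.83 for Il10, 0.82 for Il15ra and 0.79 for Tnf, and 0.31 and 0.29 for Ebi3 and Il12b (values centred on the table mean, 17 samples). Centred on group means, Ebi3 was at -0.52 and Il12b at -0.45, and the other genes at 0.61 to 0.86. The link is not particular to this list, as the mean of the 8 Kupffer cell markers was at 0.94 with Il18bp, 0.86 with Il15, 0.83 with Il27 and 0.75 with Tnf. The mean of 9 T or NK cell markers behaved alike (0.94 for Il27 and 0.89 for Il15), and the dendritic cell mean ran the other way for Tnf (-0.82). The summed level of T or NK cell markers was 11.65 to 12.52 (log2) without and 11.48 to 11.65 with tumour in TIM4+CD206+ KCs, and 11.45 to 11.86 and 11.00 to 11.06 in TIM4+CD206high KCs. None of the 9 markers tested was called in either subset (limma), and 2 and 4 were called lower without tumour-free replicate 2. The part of such cells in the members' values was not tested.

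**Figure D5:**
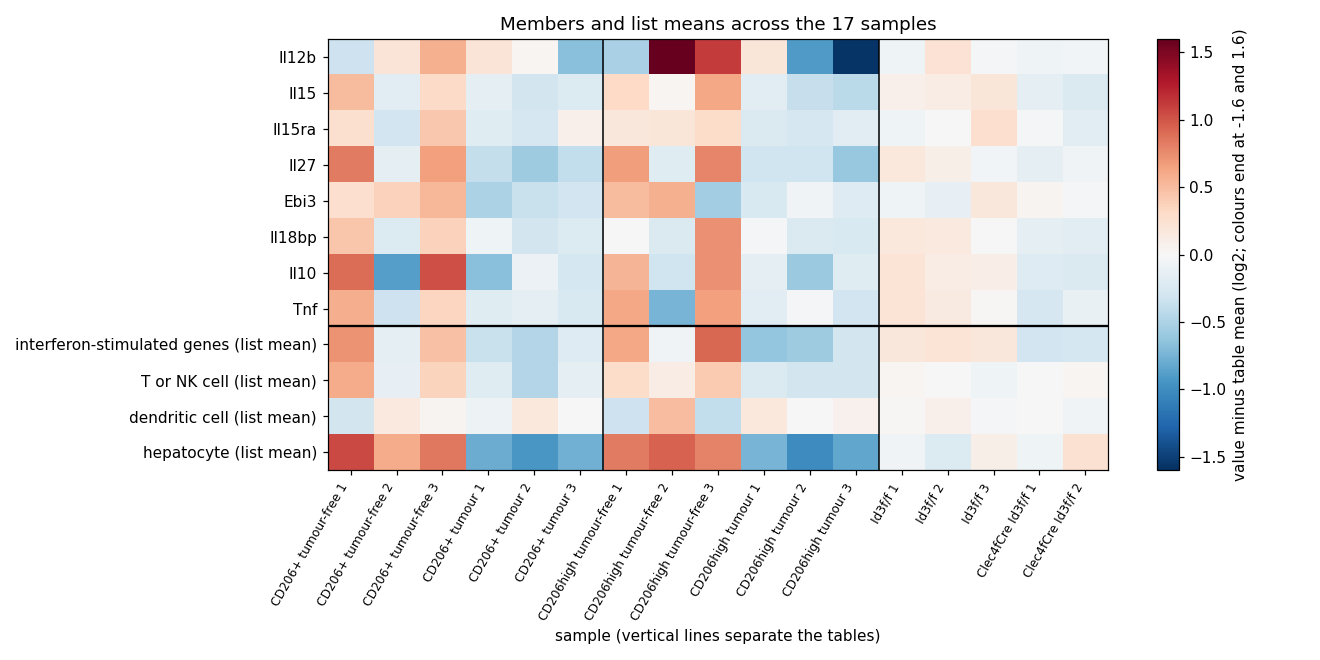
Value minus table mean (log2, colour) of 8 genes and of the mean of 4 gene lists (rows) in the 17 samples (columns). Il15, Il27, Il18bp, Il10, Tnf and the interferon-stimulated genes are red in tumour-free replicates 1 and 3 and pale or blue in replicate 2 of both subsets (for Il18bp in TIM4+CD206high KCs only replicate 3 is red).

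All 15 interferon-stimulated genes had negative differences with tumour in both subsets, with medians of -0.71 and -0.95. In TIM4+CD206+ KCs 4 were called, all lower. They were Ifit3 (-1.17 ± 0.18), Stat2 (-0.89 ± 0.15), Cxcl10, a chemokine that draws NK and T cells (-1.55 ± 0.26), and Oasl2 (-1.08 ± 0.21). The minor subset had 3 called lower, Ifit3 (-1.35 ± 0.25), Cxcl10 (-2.20 ± 0.50) and Usp18 (-0.95 ± 0.22). Without tumour-free replicate 2, the lowest for this list in both subsets, 10 and 13 of 15 were called lower. Between the genotypes 9 of 15 were called, all lower in Clec4fCreId3f/f KCs (median -0.61), with Cxcl10 (-0.97 ± 0.11), Oasl2 (-0.97 ± 0.12), Isg15 (-0.77 ± 0.10) and Ifit3 (-0.83 ± 0.12) first by adjusted p.

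Of 19 regulators and receptors upstream, such as NF-κB subunits, IRF factors, CD40 and MyD88, none was called in TIM4+CD206+ KCs (limma, unadjusted p under 0.05 for 2272 of all 13233 genes), with differences from -0.95 to 1.14. With tumour 2 were called lower in TIM4+CD206high KCs, Cd40, which triggers IL-12 on contact with T cells (-0.80 ± 0.18, adjusted p = 0.0375), and Irf7, a driver of type I interferon (-0.82 ± 0.19, adjusted p = 0.0438). Without tumour-free replicate 2, 3 were called lower and 1 higher in the main subset, and 3 lower and 4 higher in the minor subset. Between the genotypes Irf7 (-0.47 ± 0.08, adjusted p = 0.0133) and Irf1, which acts on Il12 and Il15 promoters (-0.53 ± 0.10, adjusted p = 0.0167), were called lower.

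On the receiving side, 2 of 11 receptor genes fell with tumour in TIM4+CD206+ KCs and 2 of 12 in TIM4+CD206high KCs. Il2rg, the common γ chain that IL-15 needs, was lower in both (-0.99 ± 0.17, adjusted p = 0.0175, and -0.87 ± 0.20, adjusted p = 0.0469). The main subset also had lower Il10ra (-0.70 ± 0.14, adjusted p = 0.0371), and the minor subset lower Il2rb, the β chain shared by the receptors of IL-2 and IL-15 (-0.95 ± 0.17, adjusted p = 0.018). Lymphocytes express both chains, and the median difference was -1.05 and -0.80 for B cell markers and -0.52 and -0.70 for T or NK cell markers, whose part was not tested. Without tumour-free replicate 2, 5 of 11 and 2 of 12 receptor genes were called lower. Between the genotypes 1 of 9 was called, Tnfrsf1b, a receptor of TNF, which was higher in Clec4fCreId3f/f KCs by 0.72 ± 0.10 (adjusted p = 0.0057). List medians were -0.53, -0.21 and 0.07.

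Of 12 JAK-STAT and SOCS genes, none was called in TIM4+CD206+ KCs. Socs3, a feedback inhibitor induced by IL-10 and IL-6 signals, rose in TIM4+CD206high KCs (2.82 ± 0.52, adjusted p = 0.0193). In TIM4+CD206+ KCs it was also higher in each tumour-bearing sample than in any tumour-free one (1.84 ± 0.56, limma, adjusted p = 0.129). Without tumour-free replicate 2, 1 gene was called higher and 1 lower in the main subset, and 3 higher and 1 lower in the minor subset. Between the genotypes Socs1, an inhibitor of interferon signalling, fell (-0.48 ± 0.10, adjusted p = 0.0237). Among 9 genes of TNF shedding and feedback, the only call was Timp3, an inhibitor of the sheddase ADAM17. It was lower in tumour-bearing TIM4+CD206high KCs (-1.55 ± 0.26, limma, adjusted p = 0.0135). There 3 of 8 stellate cell markers were called lower as well. Of 8 endothelial markers 7 were negative, and Clec4g was called lower (-0.90 ± 0.18). The part of these cells in Timp3 was not tested. Without tumour-free replicate 2, none of the 9 TNF genes was called in TIM4+CD206+ KCs and 2 higher and 2 lower in TIM4+CD206high KCs.

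Of 18 other ligands that activate NK cells, 9 were tested in TIM4+CD206+ KCs, 11 in TIM4+CD206high KCs and 8 in the Id3 table. None was called with tumour (limma), and without tumour-free replicate 2 none and 2 lower, in the main and the minor subset. Il18, whose product IL-18-binding protein neutralises, was at 11.86, 11.61 and 12.36 without and 12.64, 12.29 and 12.37 with tumour in TIM4+CD206+ KCs (0.49 ± 0.22, adjusted p = 0.297). Its difference in TIM4+CD206high KCs was 0.18 ± 0.35 (adjusted p = 0.780). Between the genotypes Il18 was at 12.09, 12.03 and 12.23 in Id3f/f and 11.35 and 11.39 in Clec4fCreId3f/f KCs, a fall of 0.75 ± 0.09 (adjusted p = 0.00328), and it was the only ligand called. IL-18 and its inhibitor were thus both lower in each Clec4fCreId3f/f sample, of which only Il18 passed the threshold. Il21, Ifnb1 and Ifna4 were at or below 0 in all samples of the 3 tables.

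As a description, the genes with the pattern most like each member over 17 samples, among 12222 genes tested in all tables and with values centred on the table mean, were the following. For Il15 they were Tmem106a, Slc31a2 and Scimp (r = 0.96 each), and for Il15ra Cyp4b1 (0.94), Med27 (0.93) and Sertad3 (0.92). For Il27 they were Ciita (0.97), the activator of MHC class II genes, Gm30505 (0.96) and Sp110 (0.96). For Il10 they were Serpina3g (0.93), Serpina3f (0.92) and Zbp1 (0.92), and for Tnf Fcgr4 (0.97), Max (0.96) and Serpina3h (0.93). Serpina3g, Serpina3f and Serpina3h are near-identical copies among which reads may be split. For Il18bp they were Stard5, Tmub2 and Cln3 (0.95 each), for Ebi3 Gm16712 (1.00), Apoa1 (0.93) and Pglyrp2 (0.91), and for Il12b Cacnb4 and C730014E05Rik (0.86 each). Centred on the group mean, Cyp4b1 and Sertad3 remained for Il15ra, Gm16712 for Ebi3 and Max for Tnf, and none of the 3 remained for the other 5 genes.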

How the data were processed

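The authors sorted KCs, amplified cDNA with a SMART-Seq kit, aligned reads with STAR 2.7.10a to mm10 (GRCm38, per the labels), counted them with HTSeq and used DESeq2. The deposited values are on a log2 scale, although they are named counts and TPM, with features of the regularized log that the authors' DESeq2 offers, which draws low values together and understates differences of genes with few reads. The test planned for this unit was kept. Raw totals are not in these tables, and the deposited values on the linear scale sum per sample, in units of 1e6, to 34.1 to 39.7 in the TIM4+CD206+ table, 32.6 to 35.1 in the TIM4+CD206high table and 21.8 to 24.1 in the Id3 table. Reads without molecular identifiers are not independent molecules, so that counting errors, taken as those of a count of 2 to the power of the value, are a lower limit.

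Samples were grouped by their labels. Groups were compared within each table with limma 3.58.1 in R 4.3.3 (mean-variance trend, two-sided, Benjamini-Hochberg adjustment), tested on simulated data first. The genes, gene lists and tests were chosen with earlier results of these data known. Named beside the 9 members are up to 4 called genes per list and comparison, Id3, Clec4f and the 3 genes most like each member, and genes that overlap a member, Apobr, Numa1 and Gm16712, were added after values were seen, as were Krt19, Xist and Ddx3y. Batf3 is in both the dendritic cell and inducer lists, and 1 B cell marker, Ighm, is not analysed here. Clec4f, whose locus drives the Cre, fell by 1.52 ± 0.06 in Clec4fCreId3f/f KCs. The main fits did not pair samples, and replicate numbers entered only as a block in an alternative fit. The deviations from group means of same-numbered samples correlated above a cut-off of 0.1 in TIM4+CD206+ KCs (0.35, 0.56 and 0.15). They did not in TIM4+CD206high KCs (-0.05, -0.13 and -0.05) or between the genotypes (-0.07 and -0.10). No label states such a pairing, and the cut-off was applied to these same data. Transcript lengths from GENCODE M21 matched 98.4% to 98.6% of genes tested. Alternatives were no filter, a filter at a mean of 50 counts, the replicate block, no trend, median centring, quantile normalization and leaving out each sample. A few genes that the naming rule selects are not reported here.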

Additional observations from a re-analysis of the deposited data

How the results depend on the processing

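In TIM4+CD206+ KCs the replicate block, a pairing that no label states, raised the genes called from 469 to 1026. It left 1 member called, Ebi3 (limma, adjusted p = 0.0139), and changed no other member's call. No member was called there with no filter, without the trend or with median centring (0 of 9, Ebi3 at an adjusted p of 0.0593, 0.0616 and 0.0564). In TIM4+CD206high KCs the filter at a mean of 50 counts left 600 genes called. Between the genotypes no filter gave 477 genes and 0 members (Il10, adjusted p = 0.0502), the block 2089 genes and 4 members, no trend 2 members, Il10 and Il15, and median centring 3, Il10, Il15 and Il18bp. Deviations of same-numbered samples did not correlate above 0.1 between the genotypes. Ebi3 between the genotypes, at 0.02, was at -0.013 with median centring and ran from -0.049 to 0.11 with samples left out. With 1 sample left out, 231 to 1022 genes and 0 to 4 members were called in TIM4+CD206+ KCs, 579 to 3634 and 0 to 4 in TIM4+CD206high KCs, and 17 to 1850 and 0 to 3 between the genotypes. The lowest counts, 17 and 19, came without either Clec4fCreId3f/f sample, when the lone sample is assumed to vary like the other group, and the 1022 and 3634 came without tumour-free replicate 2. No difference of a member other than that of Ebi3 between the genotypes changed sign under any alternative. The cause of these changes was not tested. Counts in the gene lists without tumour-free replicate 2 were added after seeing the data.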
